A study of Mus musculus with 8 samples.

Results

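The regions described here surround 6 genes that lie near each other on mouse chromosome 7, namely Nr2f2, Mctp2, Rgma, Chd2, St8sia2 and Slco3a1. A region belongs to this neighbourhood when its centre lies inside one of the genes, or when one of them has the nearest transcript start among protein-coding genes. By this rule 78 of the 11180 listed regions were members. All 78 came from the list of regions with increased H3K27ac in Nrip1KO myotubes. The 6 genes were chosen by the number of increased regions nearest to them in these same lists, so their number of regions, its density and the direction are the ground of the choice and not a finding.

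CUT&RUN for H3K27ac, the acetylation of lysine 27 of histone H3, was carried out in primary mouse skeletal muscle myotubes labelled Nrip1KO or Ctrl. CUT&RUN directs a nuclease to chromatin with an antibody, so that DNA carrying the mark is released and sequenced. There were 8 libraries in 4 groups of 2, H3K27ac and IgG for each genotype, and the neighbourhood rests on the 4 H3K27ac libraries. The question behind the comparison was where the mark changes when RIP140, the nuclear receptor coregulator that Nrip1 encodes, is missing. Satellite cells, the stem cells of muscle, had been taken from gastrocnemius, expanded over several passages and differentiated for 4 days in both genotypes. The study describes the knockout myotubes as those of its striated muscle line, in which floxed Nrip1 is deleted by Cre under the muscle creatine kinase promoter, with Cre-negative littermates as controls in the colony. That promoter is active in differentiated heart and skeletal muscle and becomes active as muscle cells differentiate. The number of animals behind the cultures is not given in the sources used here. Nuclei were pooled before they were split between antibodies. The sample labels and the methods name different suppliers of the H3K27ac antibody, and which one was used could not be settled.

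The authors called broad peaks and listed those whose intensity differed by 2-fold or more, with 1 list for each direction. A list holds intervals and no value per library. The spread between replicates and the depth are therefore unknown, no test of a change was possible, and "increased" and "decreased" below mean the list in which a region stands. A list of this kind shows the regions that passed the fold threshold, and regions with the mark that did not pass it were not analysed here.

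H3K27ac is found at active promoters and at active enhancers, which may lie far from the gene they act on and often occur in groups. Nr2f2 encodes COUP-TFII, an orphan nuclear receptor that binds pairs of the half-site AGGTCA and is known for roles in vessel, heart and muscle progenitor development. Rgma encodes repulsive guidance molecule A, a membrane-anchored ligand of neogenin and a coreceptor for bone morphogenetic proteins. Slco3a1 encodes an organic anion transporter, St8sia2 an enzyme that builds polysialic acid on the adhesion molecule NCAM, Chd2 a chromatin remodeller of the CHD family and Mctp2 a membrane protein with C2 domains.

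Sequence from the widest region of 5 of the genes and from the Chd2 region that lies closest to an annotated start is shown first, since most of the results turn on these places. Capitals mark matches to consensus motifs that were searched on both strands. These were AP-1 (TGACTCA or TGAGTCA), TEAD (CATTCC), an E-box of the kind bound by myogenic factors (CAGCTG), the nuclear receptor half-site (AGGTCA), a direct repeat of that half-site with a spacer of 1 base and up to 2 mismatches, and MEF2 and ERR sites. A half-site is part of every ERR match and can be part of a direct repeat. All stretches were read from the RefSeq sequence of GRCm38.p6, which is mm10 under its NCBI name, and contain no annotated exon. Of the promoters in the RefSeq table used here, those of Nr2f2, Mctp2 and St8sia2 were matched, and 0 of these 3 was overlapped by a region, so they are not printed.
Rgma, widest region, chr7:73373104-73373223, plus strand: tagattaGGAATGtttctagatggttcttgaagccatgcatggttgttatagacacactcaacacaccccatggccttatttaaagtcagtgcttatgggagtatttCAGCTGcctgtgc
Nr2f2, widest region, chr7:70355425-70355544, plus strand: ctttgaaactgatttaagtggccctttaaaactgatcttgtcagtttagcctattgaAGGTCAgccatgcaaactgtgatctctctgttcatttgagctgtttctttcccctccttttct
Chd2, region at an internal start, chr7:73447329-73447448, plus strand: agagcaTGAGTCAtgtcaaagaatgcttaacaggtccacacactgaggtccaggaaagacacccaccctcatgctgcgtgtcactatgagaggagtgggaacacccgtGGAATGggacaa
St8sia2, widest region, chr7:74009157-74009276, plus strand: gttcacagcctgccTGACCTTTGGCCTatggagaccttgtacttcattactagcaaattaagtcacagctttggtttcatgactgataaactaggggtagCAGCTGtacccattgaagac
Slco3a1, widest region, chr7:74450711-74450830, plus strand: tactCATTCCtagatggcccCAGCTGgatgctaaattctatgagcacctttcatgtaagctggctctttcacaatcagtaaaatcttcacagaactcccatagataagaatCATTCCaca
Mctp2, widest region, chr7:72589317-72589436, plus strand: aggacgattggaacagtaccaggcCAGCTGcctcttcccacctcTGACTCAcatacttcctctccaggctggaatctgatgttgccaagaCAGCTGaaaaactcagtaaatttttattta
Each stretch of 120 bases was the one in its region with the most kinds of motif, then the most matches. Its matches therefore follow from that choice and do not describe the region. Stretches picked in the same way but not printed held 0 matches for Mctp2, 1 TEAD match for Slco3a1 and 2 TEAD matches for Chd2. The printed stretches had a GC content between 40.0% and 51.7%. The St8sia2 stretch held a direct repeat, with its half-site on the minus strand, and an E-box. The Mctp2 stretch held an AP-1 match between a pair of E-boxes, and the Chd2 stretch an AP-1 and a TEAD match. Shares of regions with each motif are given below.

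The regions of the neighbourhood ran from chr7:69812144 to chr7:74836765, over 5.02 Mb, and the genes themselves from chr7:70351944 to chr7:74554780. Of the 78 regions, 27 had their centre inside a member gene and 51 lay outside, and all 27 also had that gene as the nearest start. None was decreased, that is 0 of 78, and the exact 95% interval of the increased share reached down to 95.4% by counting error alone. On the rest of chromosome 7, 895 of 918 listed regions were increased, which is 97.5% (exact 95% interval 96.3% to 98.4%). On the other chromosomes the share was 28.9%. The direction around the 6 genes was thus that of nearly the whole chromosome, and nothing is read from it about these genes. A difference in the number of copies of chromosome 7 between the cultures and a difference in acetylation cannot be told apart from these lists.

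**Figure D1:**
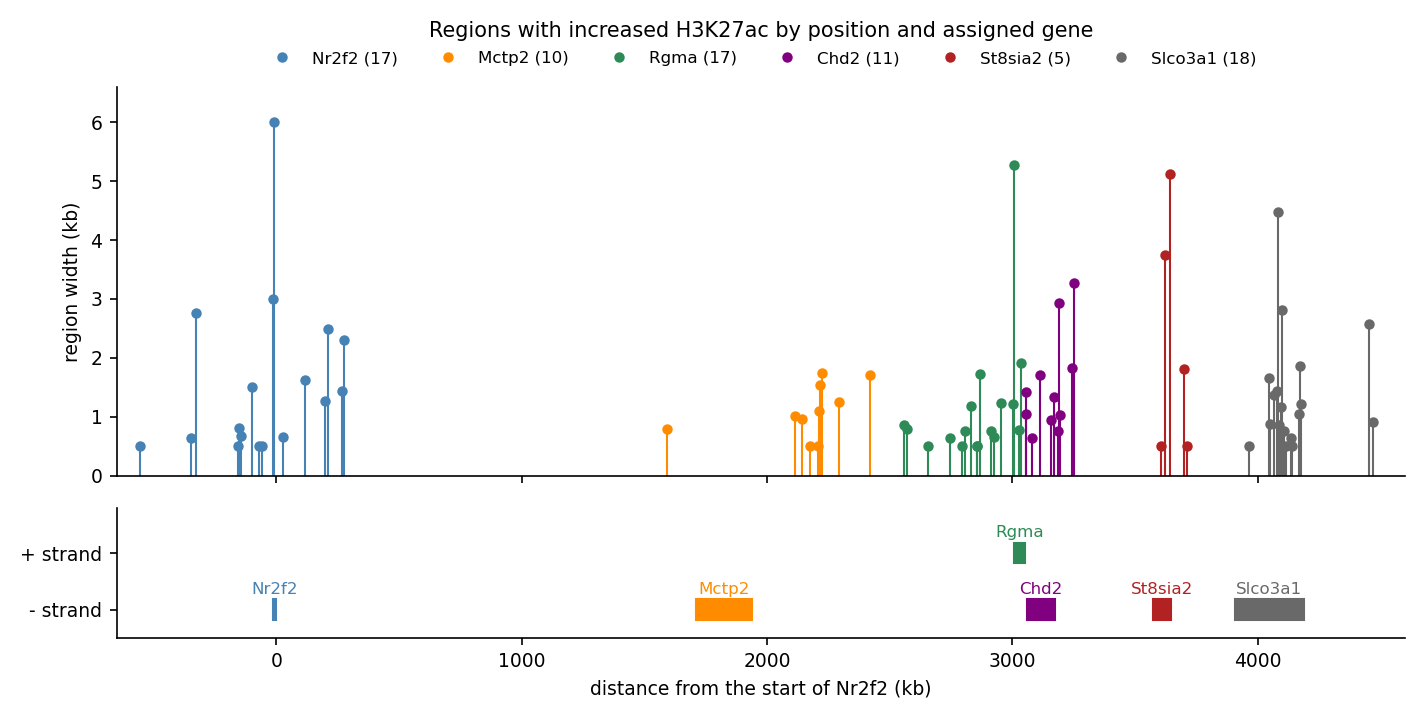
Each stem is 1 region assigned to the gene of its colour, placed by its distance in kb from the start of Nr2f2 and drawn to its width in kb, with the number of regions per gene in the legend. The bars below show the 6 genes on their strands. The widest stems stand at Nr2f2 (6010 bp), Rgma (5265 bp) and St8sia2 (5120 bp), and 18 regions belong to Slco3a1.

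Density was compared with the rest of the chromosome over nearest-start territories, the stretch of chromosome in which a base has a given gene as its nearest protein-coding start. The territories of the 6 genes added up to 4.18 Mb, or 2.87% of chromosome 7, and held 8.02% of its increased regions. There were 18.7 regions per Mb in the neighbourhood and 6.50 on the rest of the chromosome, a ratio of 2.87. Counted in bases, regions covered 26.8 kb per Mb in the neighbourhood and 8.07 kb per Mb elsewhere. The genes had been chosen for this density, and no test was made. Joining regions within 100 kb of each other left 9 stretches in the neighbourhood and lowered the ratio to 1.11.

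The gaps between regions restate the density for which the genes were chosen and are given as a description. Between adjacent increased regions of the neighbourhood the median gap was 14.5 kb (quartiles 6.51 and 43.8 kb, 75 gaps), against 35.8 kb (quartiles 11.7 and 116 kb, 891 gaps) on the rest of chromosome 7. The shortest gap, 547 bp, lay between a pair of regions upstream of Chd2. With a limit of 12.5 kb between neighbours, 24 of the 78 regions fell into 6 clusters of 3 or more and 26 stood alone. The largest cluster had 8 regions and lay within Slco3a1.

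In windows of 1 Mb, the window from 73 to 74 Mb, with Rgma, Chd2 and most of St8sia2, held 34 increased regions, the highest number of the 146 windows, of which 28 belonged to the neighbourhood. The window that follows, with the 5′ end of St8sia2 and with Slco3a1, held 26 and ranked 5, and the window of Nr2f2 held 17 and ranked 12. The 140 windows without a region of the neighbourhood had a median of 4 increased regions, an upper quartile of 10 and a maximum of 32. The neighbourhood was therefore uneven, with 1 region of its own between 71 and 72 Mb. No decreased region lay in any of its 6 windows.

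**Figure D2:**
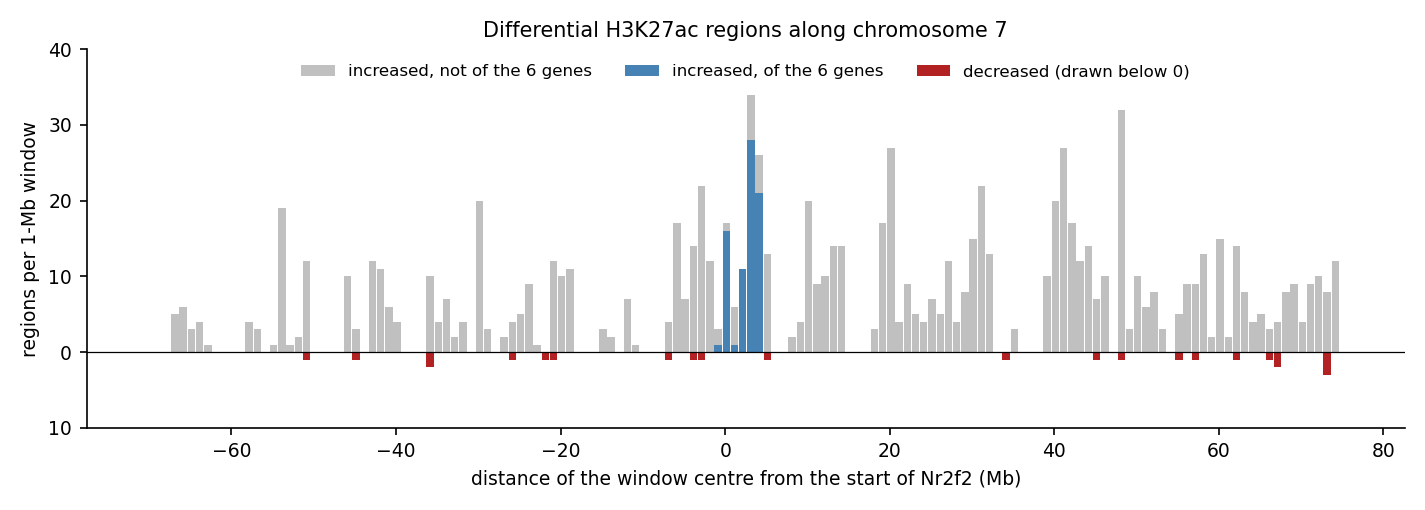
Bars give the number of differential regions in each 1-Mb window of chromosome 7 against the distance of the window centre from the Nr2f2 start in Mb, with increased regions above 0, those of the 6 genes in blue, and decreased regions below 0. The tallest bar, with 34 increased regions, lies 3.13 Mb from the Nr2f2 start, and another window far from the neighbourhood reached 32.

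Territory size differs widely among genes. The median territory on chromosome 7 was 29.4 kb, and those of the members ranked between 8 (Nr2f2) and 121 (Chd2) of 2021 by size. Among genes with territories of at least 200 kb, a limit set after seeing the data, the 6 members held 18.7 regions per Mb together and the 130 other genes 5.73. Of these others, 53 had 0 regions, the median was 3.83 per Mb, the upper quartile 11.5 and the maximum 38.2. All 6 members lay above that median and 5 above that upper quartile, with Mctp2 below it. As the members were chosen for their number of regions, this place among large territories restates the choice. Among the 53 genes of the chromosome with 5 or more regions the median was 24.1 per Mb, and Nr2f2, Mctp2 and St8sia2 were below it. Of the other protein-coding genes of chromosome 7, 19.6% had an increased region nearest to them.

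**Figure D3:**
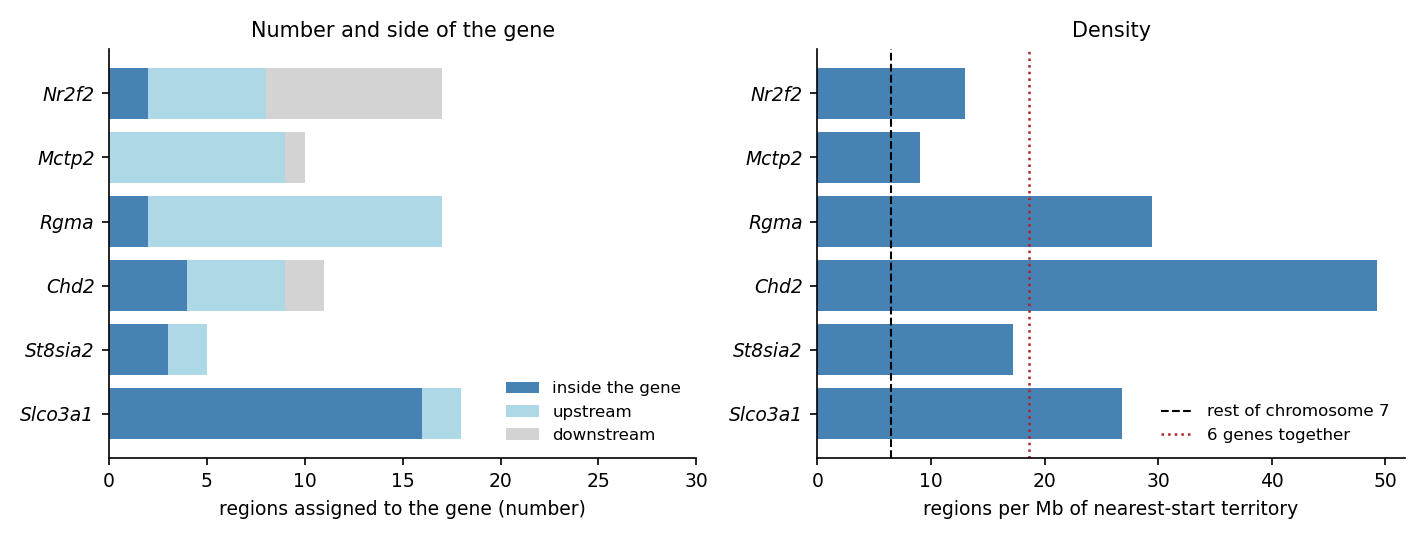
The left panel stacks the number of regions of each gene by side (inside the gene, upstream or downstream of it), and the right panel gives regions per Mb of nearest-start territory with the rest of chromosome 7 (6.50, dashed) and the 6 genes together (18.7, dotted). Slco3a1 had most of its regions inside the gene, Rgma upstream, and Chd2 the highest density (49.3 per Mb).

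Nr2f2 (ENSMUSG00000030551.14, chr7:70351944-70366735, minus strand) had 17 regions over a territory of 1307 kb, or 13.0 per Mb. They covered 27184 bp, the most of the 6 genes. The 2 regions inside the gene were the widest and the next widest of the 17, at 6010 bp and 2995 bp. The first, chr7:70354395-70360404, had been joined from 3 called peaks, spanned 4 of the 6 annotated transcript starts of Nr2f2 and had a GC content of 51.5%. It did not reach the start farthest upstream, 9336 bp from its centre. The second, chr7:70350843-70353837, had been joined from 2 peaks, had its centre in a UTR and ran past the 3′ end of the gene. Both together covered 94.2% of 9.56 kb.

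Outside the gene, 9 Nr2f2 regions lay downstream, out to 554 kb from the gene start, and 6 upstream, out to 277 kb. Of the downstream ones, 6 were in Gm29683, a lincRNA gene of 159 kb on the same strand, all by their centre in its introns. Of the upstream ones, 2 lay in introns of B130024G19Rik, a transcript that starts within Nr2f2 on the opposite strand, and 1 lay at the start of the lincRNA gene Gm44812. In all, 11 of the 17 were over 100 kb from any Nr2f2 start. The widths outside the gene ranged from 501 bp to 2761 bp. Over their whole width, 10 of the 17 regions held half-sites, against 49.6% of the other increased regions of chromosome 7. The Wilson interval of the Nr2f2 share contained that 49.6%. Of the 6 genes, only Chd2 and Mctp2 had intervals that left it out. Chd2 had half-sites in 10 of 11 regions (Wilson interval 62.3% to 98.4%) and Mctp2 in 1 of 10 (1.79% to 40.4%). In the central 500 bp, the intervals of both genes contained the share of those other regions, 27.3%. No test of these shares was made. The Nr2f2 regions held 23 matches, of which 5 were in the widest region, including the one shown above.

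Rgma (ENSMUSG00000070509.15, chr7:73375509-73419899, plus strand) had 17 regions over 577 kb, or 29.5 per Mb. Here the start itself was covered. The region chr7:73372495-73377759, 5265 bp wide, had its centre 382 bp before the start and spanned 2 of 5 annotated starts, and it had the highest GC content of the 78, at 52.5%, with 41.0 CpG per kb. The Rgma stretch printed above, with a TEAD match and an E-box, comes from it. Another region, chr7:73391891-73392673, lay 1006 bp from an internal Rgma start, and the other region inside the gene, chr7:73401925-73403831, was intronic.

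The other 14 Rgma regions formed a series upstream of the gene that reached 449 kb from its start. Their widths were between 501 bp and 1734 bp. Of these, 2 lay in A730056A06Rik, an antisense gene of 61.8 kb that overlaps the Rgma start and also holds the centre of the region at the start. A further 3, chr7:73220746-73234938, formed a cluster in introns of the lincRNA gene Gm30075. The remaining 9 lay in no annotated gene. Over their whole width, 11 of the 17 regions held E-boxes, with 20 matches (64.7%, Wilson interval 41.3% to 82.7%). The interval contained the share in the other increased regions of chromosome 7, 53.5%. At Mctp2 the share with E-boxes was higher, 7 of 10 regions. The region at the start held 5 TEAD matches and the only ERR match of the neighbourhood.

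Chd2 (ENSMUSG00000078671.11, chr7:73426638-73541830, minus strand) had 11 regions over 223 kb. This was the smallest territory of the 6, the highest density (49.3 per Mb, rank 6 of 53) and the largest share of territory covered (7.58%). No other gene with a territory of at least 200 kb was denser. All 11 were within 100 kb of a Chd2 start. Chd2 and Rgma stand tail to tail with 6.74 kb between their ends, and 2 Chd2 regions, 1041 bp and 1416 bp wide, lay in that interval. Inside the gene were 4 regions, of which 3 spanned an internal annotated start (chr7:73447213-73447846, chr7:73478464-73480167 and chr7:73536384-73537724). The last of these was 4776 bp from the gene start, which it did not reach. The AP-1 and TEAD matches in the printed Chd2 stretch are in the first.

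Upstream of Chd2, 5 regions stood within 76.1 kb of the start. A cluster of 3, chr7:73551045-73559852, covered 53.6% of 8.81 kb at the 5′ end of the non-coding gene 1810026B05Rik, which overlaps the start of Chd2 and runs on the same strand. The 2 regions nearest to the 1810026B05Rik start were 2932 bp and 1029 bp wide and only 547 bp apart. A region of 1835 bp lay at the start of the lincRNA gene Gm44734. The region farthest upstream, chr7:73616321-73619597, was 3277 bp wide, had 44.9 CpG per kb, the most of the 78 regions, and held 6 TEAD matches, the most in any of them.

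Slco3a1 (ENSMUSG00000025790.14, chr7:74275419-74554780, minus strand) had 18 regions over 671 kb (26.8 per Mb), the most of any gene on the chromosome. In contrast to Nr2f2 and Rgma, 16 of the 18 lay inside the gene, which is 279362 bp long, and 15 of these 16 were intronic. The other, chr7:74505071-74505571, was 986 bp from the start of an annotated transcript with a retained intron. No annotated start of Slco3a1 was covered by a region, and the nearest region to the gene start was 10337 bp into the gene.

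The cluster of 8 regions, chr7:74432215-74481151, spread over 48.9 kb in the Slco3a1 introns and covered 27.4% of it. Its regions were between 501 bp and 4472 bp wide and their GC content lay between 41.9% and 50.3%. The widest, chr7:74448274-74452745, had been joined from 2 peaks and held 5 TEAD matches, 2 of which are in the printed stretch. TEAD matches were present in 5 of the 8 regions and AP-1 matches in 2. A second cluster of 3 regions, chr7:74537126-74545056, lay closer to the gene start. Outside the gene, 2 regions stood 265 kb and 282 kb upstream, in the lincRNA gene 0610006L08Rik. Over their whole width, 12 of the 18 Slco3a1 regions held TEAD matches (66.7%, Wilson interval 43.7% to 83.7%). The interval contained the share in the other increased regions of chromosome 7, 52.0%. At St8sia2 the share with TEAD matches was higher, 4 of 5 regions.

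St8sia2 (ENSMUSG00000025789.9, chr7:73939119-74013690, minus strand) had 5 regions over 291 kb, or 17.2 per Mb, the fewest of the 6 genes. From the 3′ side, their widths were 501 bp, 3746 bp, 5120 bp, 1806 bp and 501 bp. The first 3 of these were in introns, and the other 2 lay 52.1 kb and 64.9 kb upstream of the gene. The widest, chr7:74005855-74010974, had its centre 5276 bp from the gene start and held 7 E-boxes and 3 AP-1 matches, both counted over its whole width and the highest number in a region of the neighbourhood, the latter shared with 1 Mctp2 region. Few regions thus covered 4.02% of the territory, more than the 18 of Slco3a1 covered of theirs (3.76%).

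Mctp2 (ENSMUSG00000032776.9, chr7:72077830-72306608, minus strand) had 10 regions over 1110 kb, or 9.01 per Mb. None was inside the gene, which is 228779 bp long, and all 10 were over 100 kb from any of its starts. Of these, 9 lay upstream in no annotated gene, between 172 kb and 482 kb from the gene start. The tenth, chr7:71960304-71961098, lay downstream at the start of the lincRNA gene 1700011C11Rik, 150 kb from the nearest Mctp2 start. A cluster of 4 regions, chr7:72574969-72590899, stood in the upstream series, and all 4 held AP-1 matches over their whole width, 7 in all. Of the 6 clusters of 3 or more regions, no other had AP-1 matches in every region, so this one is an extreme. In their central 500 bp, chr7:72580818-72582350 and chr7:72589162-72590899 held none. Over all Mctp2 regions, 5 of 10 held AP-1 matches over the whole width (Wilson interval 23.7% to 76.3%). That interval contained the share in the other increased regions of chromosome 7, 28.2%. The 4 regions also held 10 of the 15 E-boxes of the Mctp2 regions. Assignment to Mctp2 rests only on the absence of a nearer protein-coding start.

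At the edges of the neighbourhood the rule put similar regions on either side. The last region toward Arrdc4 that was counted, chr7:69812144-69812644, was 501 bp wide and 543 kb from the nearest Nr2f2 start, and the next one, 629 bp wide, went to Arrdc4 at 745 kb. On the other side a region of 913 bp went to Slco3a1 at 282 kb and the next, of 501 bp, to Sv2b at 289 kb. Between the members, Gm10295 had 6 increased regions (6.88 per Mb) and Fam174b 6 (24.1 per Mb), while the flanking genes had 3 (Arrdc4) and 7 increased with 1 decreased (Sv2b). The longest stretch without a region of the neighbourhood, 1315 kb between Nr2f2 and Mctp2, contains the Gm10295 territory.

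The position of the regions relative to genes was described from the base at the centre. Promoter-proximal regions, within 1 kb of any annotated start, made up 10 of 78 (12.8%, Wilson 95% interval 7.12% to 22.0%), against 211 of 895 (23.6%, 20.9% to 26.5%) for the other increased regions of chromosome 7. Of these 10, 5 were at starts of Rgma, Chd2 or Slco3a1 and the other 5 at starts of non-coding genes. Introns held 36 regions (46.2%, against 48.6%) and intergenic sequence 29 (37.2%, 27.3% to 48.3%, against 25.1%, 22.4% to 28.1%). The intervals of the promoter-proximal and the intergenic share overlapped slightly between the sets. There was no region with its centre in a coding exon. The median distance to the nearest protein-coding start was 68.3 kb, against 11.0 kb elsewhere on the chromosome, and 42.3% were over 100 kb away, against 12.5%. Distances of this size can arise only in large territories, such as those of the members. Of the 51 regions outside the members, 20 had their centre in a non-coding gene.

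The median width of the regions was 1048.5 bp (quartiles 654.75 and 1706 bp), with 935 bp for the other increased regions of chromosome 7, 754.5 bp for increased regions of other chromosomes and 863.5 bp for decreased regions. Regions of at least 1 kb made up 53.8% in the neighbourhood, 45.9% on the rest of chromosome 7 and 29.1% on other chromosomes. Shares of regions joined from several called peaks were 16.7% and 17.0% on chromosome 7, inside and outside the neighbourhood, and 7.27% among increased regions elsewhere. In width and joining the neighbourhood was therefore closer to its own chromosome than to other increased regions.

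GC content averaged 44.2% ± 4.02 (SD over 78 regions), against 46.3% ± 5.52 for the other increased regions of chromosome 7, 42.7% ± 5.33 for increased regions of other chromosomes and 48.0% ± 5.28 for decreased regions. Of the 78 regions, 4 (5.13%) were above 50% GC, against 23.7% on the rest of the chromosome. These 4 were the Nr2f2 region of 6010 bp, the Rgma region at the start, 1 of the Chd2 regions behind Rgma and 1 region of the Slco3a1 cluster. By gene the mean ran from 42.1% (Mctp2) to 46.3% (Rgma).

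**Figure D4:**
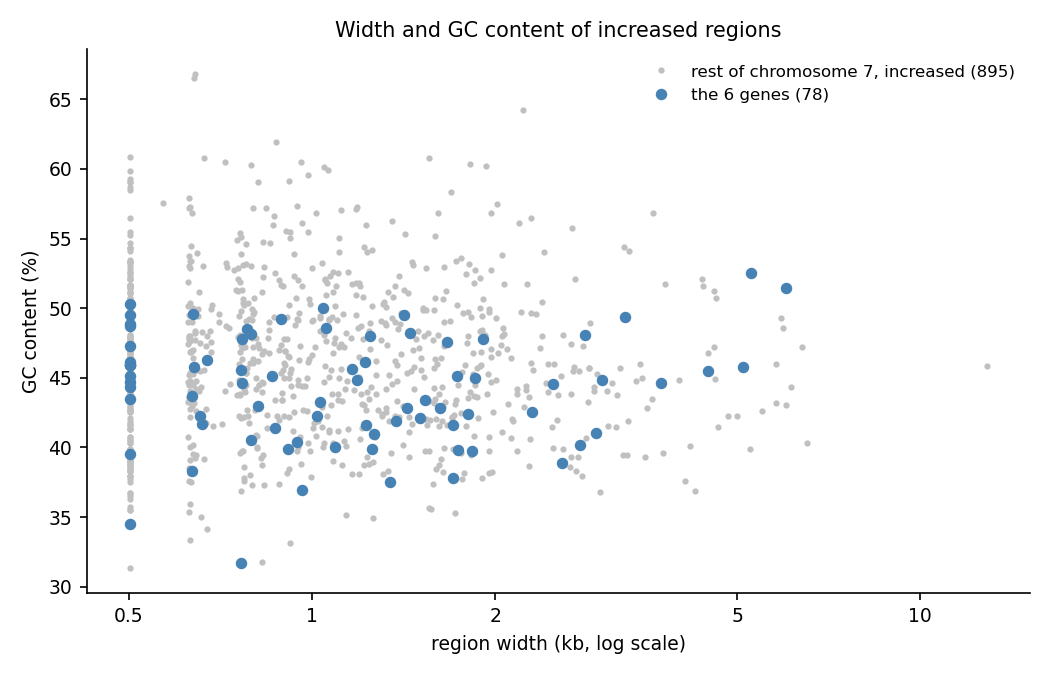
Each point is 1 increased region of chromosome 7, by its width in kb (log scale) and its GC content in percent, with the 78 regions of the 6 genes in blue and the other 895 in grey. Blue points reach a width of 6010 bp and grey points 12878 bp, and 4 blue points lie above 50% GC.

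Motif matches were compared in the central 500 bp, so that width plays no part, and intervals are Wilson 95% intervals that cover counting error only. AP-1 matches were present in 16 of the 78 regions (20.5%, 13.0% to 30.8%), against 16.0% of the other increased regions of chromosome 7, 16.6% of increased regions elsewhere and 12.8% of decreased regions. TEAD matches were present in 28 (35.9%, 26.1% to 47.0%), against 29.5%, 30.9% and 27.3%. E-boxes were present in 25 (32.1%), against 31.6%, 27.9% and 37.9%. For these motifs the interval of the neighbourhood contained the shares on the rest of chromosome 7 and on other chromosomes, so no difference from other increased regions was detectable with 78 regions.

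MEF2 matches were present in 11 regions (14.1%, 8.06% to 23.5%), against 10.3%, 12.7% and 5.30% in the same order of sets, and the share in decreased regions lay below the interval. AP-1 in decreased regions was below it too, at 12.8%. Half-sites were found in 20 regions (25.6%), against 27.3%, 25.9% and 31.5%, and direct repeats in 4 (5.13%), against 6.26%, 6.22% and 8.47%. An ERR match was found in 0 of 78 (Wilson upper limit 4.69%), with 1.01%, 0.917% and 1.38% in the other sets. Over the whole width, AP-1 matches came to 0.348 per kb in the neighbourhood and 0.302 per kb in the other increased regions of chromosome 7, and TEAD matches to 0.697 and 0.705 per kb. A match is a description of the letters and says nothing of binding.

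**Figure D5:**
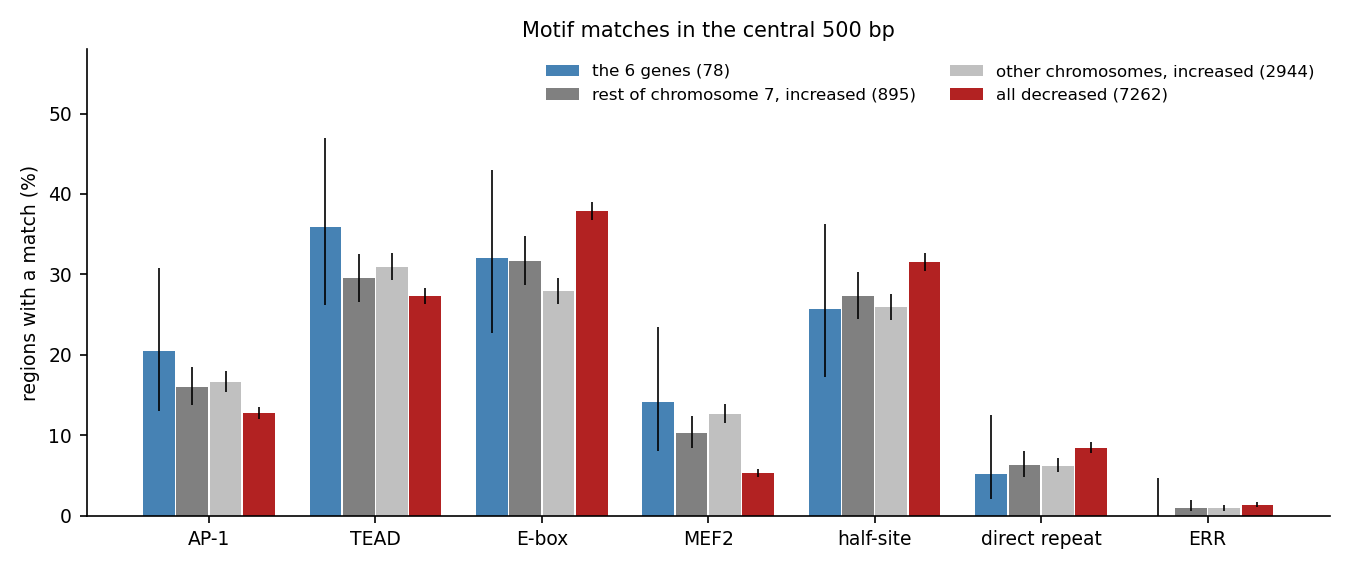
Bars give the percentage of regions with at least 1 match in their central 500 bp for each motif, for the 78 regions of the 6 genes and for the 3 comparison sets, with Wilson 95% intervals as lines. The blue lines reach across the grey bars for every motif shown, and the MEF2 share of decreased regions (5.30%) lies below the blue interval.

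The families and partners of the members were looked up in both lists by nearest protein-coding start. Over 6 gene lists, 14 of 73 genes (19.2%) had an increased region and 26 (35.6%) a decreased one, where 10.6% of all protein-coding genes had an increased and 17.8% a decreased region nearest to them. Decreased regions were the more frequent kind in the lists, as they were among all protein-coding genes. Any region was nearest to 31 of the 73 genes (42.5%), against 25.4% of all protein-coding genes. Here and in the single lists, no account was taken of territory size, which differs among genes. The lists were also chosen with earlier results of these data known, so the higher shares are not read as a result about these genes. Among the relatives and partners of COUP-TFII, 4 of 12 had a region. Rxra, the retinoid receptor partner, had 6 decreased regions, the cofactor Zfpm1 had 7 and Zfpm2 had 2 decreased and 1 increased. The close relatives Nr2f1 and Nr2f6 had none.

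In the list of RGM proteins and BMP signalling, 13 of 24 genes had a region, 7 of them an increased and 11 a decreased one. Over all protein-coding genes the shares were 25.4% for any region, 10.6% for an increased and 17.8% for a decreased one. Rgmb, a relative of Rgma, had 2 increased and 3 decreased regions, the ligand Bmp2 had 1 and 6 and the receptor Acvr2a 3 and 6. The receptor Neo1, neogenin itself, had none. Of the inhibitory Smads, Smad7 had 1 increased and 2 decreased regions and Smad6 had 1 decreased. In the polysialic acid list, 4 of 9 genes had a region. The main carrier Ncam1 had 2 increased regions and none decreased, Cadm1 had 1 increased and 8 decreased, Nrp2 1 and 4, and the related enzyme St8sia4 had none.

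Of the organic anion transporters, 3 of 11 had a region, where 25.4% of all protein-coding genes had one and 17.8% a decreased one. Slco1a6 had 4 decreased, Slco1c1 1 increased and Slco5a1 1 decreased. Of the CHD remodellers, 4 of 8 had a region, and Chd7 had 17 decreased and 0 increased. Chd1 had 1 increased region, Chd4 1 decreased and Chd6 1 of each. In the list of C2 domain proteins, 3 of 9 genes had regions, all decreased, with 5 at the ferlin Myof, 2 at Mctp1 and 1 at Fer1l6.

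For the label of the cells, the lists hold differential regions only and cannot show the level of a marker. Of 8 myotube markers, Myh3 had 1 increased region and the other 7 had none. Of 6 fibroblast markers, Col1a2 and Dcn had 1 increased region each, Col1a1 had 1 decreased and Thy1 had 2 decreased. Among all protein-coding genes, 25.4% had any region, 10.6% an increased and 17.8% a decreased one. Counts over so few genes do not identify a cell type. Nrip1, the targeted gene, had 3 decreased regions and 0 increased, the nearest 15.2 kb from a start. This is no check of the deletion itself, since no read over the deleted part was used here.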

How the data were processed

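H3K27ac CUT&RUN reads were aligned to mm10 by the authors with BWA-MEM2 (version 2.2.1), and HOMER (version 4.11) was used by them to call broad peaks and to list regions with a 2-fold or greater difference in intensity between KO and control. How replicates and IgG entered the calls is not stated. The deposited score is 1 in every row, so the deposited score and other interval columns carry no value per library. The numbers at the end of region names were read as the number of peaks joined.

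Positions were counted from 1. Genes and starts came from GENCODE M21 for mm10, with 55450 annotated genes of which 21938 were protein-coding, and sequence from RefSeq GRCm38.p6. The nearest start was taken from the region centre, among all transcripts of protein-coding genes, and 1 region of an unplaced contig was not assigned. Territories, gaps, GC content and motif matches were computed with Python 3.11.15, pandas 2.3.3, numpy 2.4.6 and SciPy 1.17.1. Assignment to the nearest start, territories, density, joining and the AP-1 and direct repeat searches were tried on simulated data with known answers. Gaps, GC content, position classes, clusters and the searches for the other motifs were not. No test of a difference was run.

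The members and gene lists were chosen with earlier results of these data known. The text names the 6 members, the protein-coding genes between and beside them, the leading other genes of chromosome 7, Nrip1 and genes of the lists that have a region, with a few relatives of the members that have none added after their values were seen. For each member, the region closest to a start, the widest and the farthest are described. Items withheld from the text are not reported here.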

Additional observations from a re-analysis of the deposited data

How the results depend on the processing

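No paired analysis was possible because the lists hold no value per library, and for the same reason no replicate could be left out. Of 41 alternatives, 30 left a count or density within 1.5 times, a share within its 95% interval or a mean or median within 1 SD, and 11 moved it further. The number of regions fell from 78 to 27 when only centres inside a member counted, to 22 with the nearest start among all annotated genes, to 45 within 100 kb of a member start or inside a member, to 42 at a width of at least 1 kb and to 9 stretches when regions within 100 kb were joined. All of these came from the list of increased regions. The density ratio to the rest of chromosome 7 was 2.87, lay between 2.45 and 3.98 under 13 alternatives, leaving out each member in turn included, and fell to 1.11 with joining within 100 kb. That alternative counts stretches in place of regions by construction. Over the whole width in place of the central 500 bp, more regions held AP-1 (37.2%), TEAD (57.7%), E-box (51.3%), AGGTCA (48.7%) and direct repeat (17.9%) matches, as the longer sequence searched allows. GC content and width were not moved. Their band of 1 SD over single regions is wide, and for GC content it also holds the means of the comparison sets. The increased share could not move, since all 78 regions came from 1 list, and its 3 alternatives are counted among the 30.

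The lists give no depth and no spread between replicates, so neither the size of a change nor its error is known for any region. Intervals on shares cover counting error over regions only, and adjacent regions are not independent of each other.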

Other observations

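Other genes of chromosome 7 reached similar numbers of regions. Vstm2b had 15 increased regions (20.4 per Mb of its territory), the translation factor gene Eif4g2 had 13 (35.3 per Mb) and Nav2 had 10 increased and 2 decreased (16.7 per Mb). In all, 13 genes of the chromosome had 10 or more. The highest densities outside the members, among genes with 5 or more regions, were at small territories, with 145 per Mb at Trim72, which encodes the muscle membrane repair protein MG53, 107 per Mb at Knop1 and 65.8 per Mb at Chsy1. In windows of 5 Mb, the one from 70 to 75 Mb held 94 increased regions, the highest of 30 windows, and the highest of those without a region of the neighbourhood held 90.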
